A study of Rattus norvegicus with 6 samples.

Results

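The hepatic bile acid genes described here encode 10 proteins that make, conjugate, sense and move bile acids, out of 15284 genes that the arrays' probes could name. They were chosen by name from the known pathway, and every non-control probe whose RefSeq accession belongs to 1 of them was taken, which gave 13 probes. The data are liver RNA from male Sprague-Dawley rats (Crl:CD(SD), an outbred stock), 9 weeks old, with 1 rat per 1-colour array. In 1 group the rats were killed after isoflurane, an inhaled anaesthetic (n = 3), and in the other after a CO2/O2 gas mixture (n = 3). All 6 rats had received the corn oil vehicle at 5 mL/kg/day, for 3 days by the design text and for 9 weeks by the treatment protocol, a conflict that the labels do not settle. No rat without anaesthesia or without corn oil is among the 6, and neither the time of day of killing nor the feeding state is given in the sources used here.

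Bile acids are made from cholesterol in hepatocytes. In the classic route Cyp7a1, the rate-limiting enzyme, starts the pathway, Cyp8b1, a sterol hydroxylase, sets the share of cholic acid, and Cyp27a1, a mitochondrial sterol hydroxylase, oxidises the side chain and also starts the alternative route. Slc27a5, the bile acyl-CoA synthetase, activates the acid with coenzyme A, and Baat then joins it to taurine or glycine. Nr1h4 (FXR) is the nuclear receptor for bile acids and induces Nr0b2 (SHP), a repressor of the genes of synthesis. Slc10a1 (NTCP) takes conjugated bile acids up from the blood at the sinusoidal membrane. Abcb11 (BSEP) pumps bile salts into the canaliculus, and Abcb4 (Mdr2) moves phosphatidylcholine to the outer leaflet of that membrane for bile.

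Promoter sequence from RefSeq (build GRCr8, 250 bases before to 50 after the annotated start, on the strand of the gene) was at hand for 7 of the 10 genes. It is shown for the pair of conjugation enzymes, whose differences between the groups were unlike, and for the synthesis enzyme Cyp8b1 and the repressor Nr0b2, which were both lowest in the same rat. Capitals mark every match, on either strand, to 5 short motifs.
Slc27a5, chr1:82699286-82699585, minus strand: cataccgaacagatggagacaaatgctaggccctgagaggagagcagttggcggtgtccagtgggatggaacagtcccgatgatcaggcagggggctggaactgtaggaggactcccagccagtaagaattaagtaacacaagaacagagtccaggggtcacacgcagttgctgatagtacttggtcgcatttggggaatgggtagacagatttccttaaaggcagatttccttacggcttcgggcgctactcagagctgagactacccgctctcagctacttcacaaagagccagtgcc
Baat, chr5:68656088-68656387, minus strand: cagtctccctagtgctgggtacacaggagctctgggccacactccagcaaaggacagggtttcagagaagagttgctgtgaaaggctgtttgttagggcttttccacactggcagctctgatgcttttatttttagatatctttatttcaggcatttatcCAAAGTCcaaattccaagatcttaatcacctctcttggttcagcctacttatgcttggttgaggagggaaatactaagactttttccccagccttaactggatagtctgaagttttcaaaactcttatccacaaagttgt
Cyp8b1, chr8:130457543-130457842, minus strand: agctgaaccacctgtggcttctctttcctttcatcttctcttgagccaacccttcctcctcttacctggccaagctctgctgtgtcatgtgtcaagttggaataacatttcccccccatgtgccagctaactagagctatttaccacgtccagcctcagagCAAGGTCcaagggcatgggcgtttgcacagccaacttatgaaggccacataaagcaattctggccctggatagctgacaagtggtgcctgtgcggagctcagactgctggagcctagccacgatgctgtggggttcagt
Nr0b2, chr5:151062910-151063209, plus strand: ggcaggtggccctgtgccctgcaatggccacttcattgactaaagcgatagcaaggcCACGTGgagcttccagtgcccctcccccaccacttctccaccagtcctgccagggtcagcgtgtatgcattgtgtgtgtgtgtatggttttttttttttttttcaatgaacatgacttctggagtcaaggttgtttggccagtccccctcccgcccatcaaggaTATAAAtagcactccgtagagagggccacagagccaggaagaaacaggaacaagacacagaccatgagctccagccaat
The motifs were TATAAA of the TATA box, AGGTCA of nuclear receptor half-sites, CAAAGTC of the HNF4A motif, CAAGGTC of the Nr5a2 (LRH-1) motif, which shares letters with the half-site, and CACGTG, the E-box. Of 33469 promoters of this length, 14.2%, 16.2%, 4.61%, 4.20% and 6.42% held them, in that order. Baat held CAAAGTC with its first base 90 bases before the start, Cyp8b1 held CAAGGTC 89 bases before it, and Nr0b2 held TATAAA 29 bases and CACGTG 193 bases before it. None of the 5 runs of letters was in the Slc27a5 window. Of the other windows searched, Cyp27a1 held AGGTCA and, overlapping it, CAAGGTC, Slc10a1 held AGGTCA, and Abcb4 held CAAAGTC. A match is a match of letters only.

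All 13 probes were well above background on all 6 arrays, so every member was tested. Signals below are log2 values relative to the 75th percentile of each array, so that 0 is that percentile, and they are compared between rats, not between probes. A difference is isoflurane minus CO2/O2, from limma, with p-values adjusted by Benjamini-Hochberg over all 34637 tested probes. A gene is given by its brightest probe unless another is named. On the arrays 53.4% to 62.3% of probes were well above background, no spot was saturated, and the number of arrays limits the precision. Hepatocyte markers were well above background on all arrays (10 of 10, summed signal 3948 to 4169 times the 75th percentile after isoflurane and 3917 to 4135 after CO2/O2).

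Of the 10 genes, 0 passed the adjusted threshold of 0.05 in limma, where 0.00866% of all probes and 0% of the 10609 genes tested did. At an unadjusted p under 0.05 there was 1 gene, Slc27a5, against 7.58% of all genes. Its signal was lower after isoflurane in every rat, at both of its probes, while Baat, which acts directly after it, had a difference of 0.12. In 8 of the 10 genes the difference was negative, and the median was -0.24 log2 units, beside -0.01 over all genes tested, of which 52.9% had a negative difference. The median rested on 1 animal, being 0.0043 without isoflurane replicate 2. The groups did not overlap for 1 of the 10 genes, against 14.2% of all genes, and that gene was lower after isoflurane, as 8.16% of all genes were without overlap. The 95% confidence interval lay within 2-fold in either direction for 7 of the 10 genes, against 90.5% of all genes. Because whole liver was measured, fewer cells of a type and less RNA per cell cannot be told apart.

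**Figure D1:**
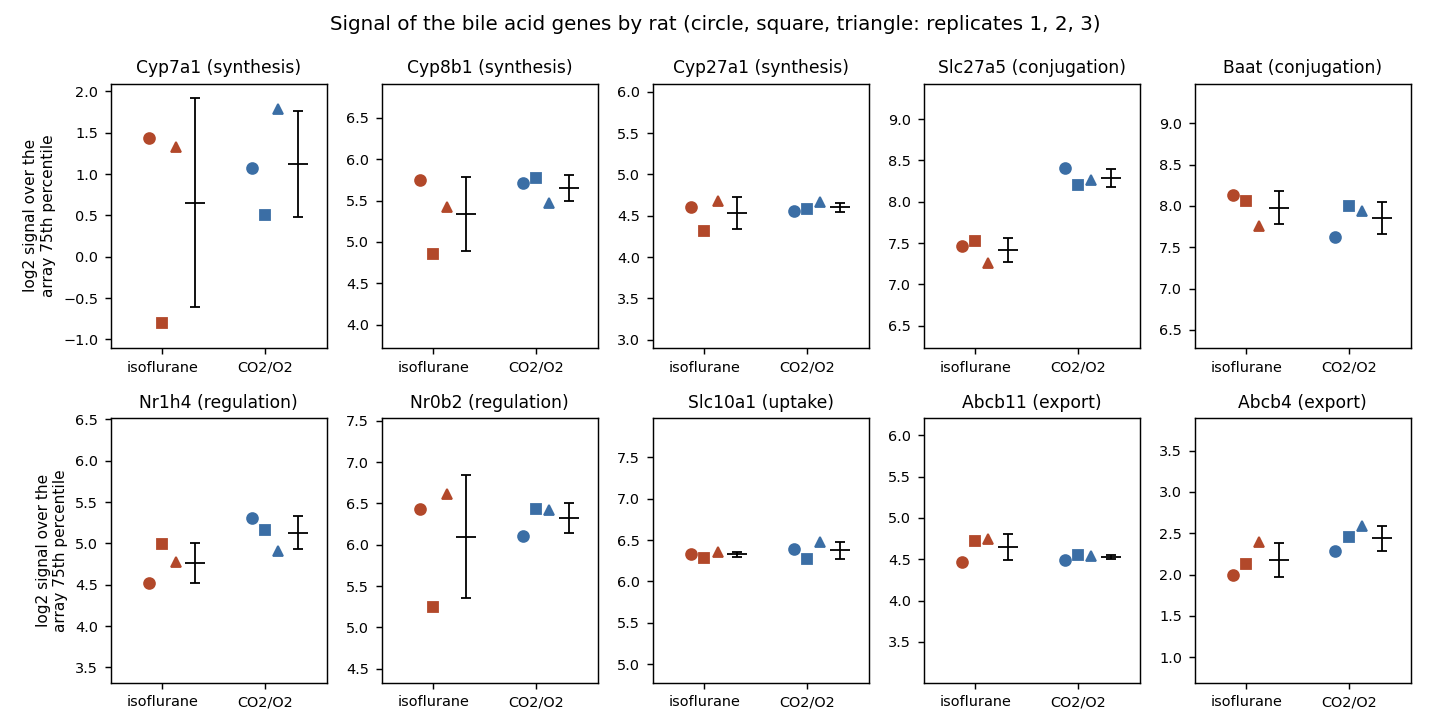
Signal of the 10 genes in each rat, as log2 of the signal over the array's 75th percentile (every vertical axis spans the same number of log2 units), with isoflurane left and CO2/O2 right. Circles, squares and triangles are replicates 1, 2 and 3, and bars are the mean ± SD (n = 3). The groups are apart for Slc27a5, at 7.25 to 7.53 after isoflurane and 8.20 to 8.41 after CO2/O2, and 1 isoflurane rat lies low for Cyp7a1, Cyp8b1 and Nr0b2.

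For all 3 synthesis enzymes the values of the isoflurane and CO2/O2 rats overlapped. Cyp7a1 had signals of 1.43, -0.80 and 1.33 in isoflurane rats, against 1.08, 0.50 and 1.79 in CO2/O2 rats. The low value of isoflurane replicate 2 stood 1.30 log2 units, or 2.47-fold, below the next rat, and the groups overlapped. The difference was -0.47 ± 0.66 (SE, n = 3 per group; limma adjusted p = 0.894), with a 95% confidence interval of -2.06 to 1.13, and without that rat it was 0.26. Cyp7a1 varied among rats more than most transcripts, as its range over the arrays was wider than that of 98.6% of genes. Its SD was 1.26 among isoflurane rats and 0.65 among CO2/O2 rats, wider than 98.96% and 97.9% of genes.

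Cyp8b1 had signals of 5.75, 4.86 and 5.42 in isoflurane rats and 5.71, 5.78 and 5.47 in CO2/O2 rats. Isoflurane replicate 2 was again the lowest, by 0.57 log2 units, replicate 1 lay within the CO2/O2 range and replicate 3 just below it. The difference was -0.31 ± 0.23 (limma adjusted p = 0.788), and it was -0.07 without isoflurane replicate 2 and -0.52 without isoflurane replicate 1. Cyp27a1, of the side chain, had 4.601, 4.32 and 4.68 in isoflurane rats and 4.56, 4.58 and 4.66 in CO2/O2 rats. Its difference was -0.07 ± 0.12, and its interval corresponds to ratios of isoflurane to CO2/O2 of 0.783 to 1.16.

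Slc27a5 carried the separation between the groups in conjugation. Its brighter probe, A_43_P12402, had signals of 7.47, 7.53 and 7.25 in isoflurane rats, against 8.41, 8.20 and 8.26 in CO2/O2 rats. The highest isoflurane rat was thus 0.67 log2 units below the lowest CO2/O2 rat, and within each group the rats spanned 0.28 and 0.21. The difference was -0.87 ± 0.11 (SE), or 1.83-fold lower after isoflurane, with a 95% confidence interval of 0.455 to 0.658 for the ratio of isoflurane to CO2/O2. It had an unadjusted p = 0.000172 in limma, the fifth smallest of all genes, and an adjusted p = 0.326, which did not pass. By the size of the difference it was number 174, and 105 genes were lower by at least as much.

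The second Slc27a5 probe, A_44_P141930, had 5.69, 5.96 and 5.52 in isoflurane rats and 6.84, 6.52 and 6.53 in CO2/O2 rats. Its difference was -0.91 ± 0.15 (limma adjusted p = 0.460). The 2 probes gave differences within 0.04 of each other, and their deviations on any array differed by at most 0.12. They report on 1 transcript accession in the same RNA samples, so they are not independent evidence on the rats. With any 1 array left out the difference lay between -0.93 and -0.79 at the brighter probe and between -1.03 and -0.80 at the other. Isoflurane replicate 1, which shared a slide row with all CO2/O2 rats, had 7.47 against their 8.20 to 8.41. A fit that blocks on slide row rests on this same comparison of 1 isoflurane rat, and gave -0.82.

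Baat had signals of 8.13, 8.06 and 7.75 in isoflurane rats and 7.63, 7.9997 and 7.93 in CO2/O2 rats. The groups overlapped and the difference was 0.12 ± 0.15 (limma adjusted p = 0.869), with an interval of -0.23 to 0.48. It was 0.013 without CO2/O2 replicate 1 and 0.24 without isoflurane replicate 3. Taken within each array, which removes any scaling between arrays, the log2 ratio of the Slc27a5 to the Baat signal was -0.66, -0.53 and -0.50 in isoflurane rats and 0.77, 0.20 and 0.33 in CO2/O2 rats. All 3 isoflurane rats lay below all CO2/O2 rats, and the mean ratio was lower by 1.99-fold, with a log2 difference of -0.995. A 2-sided exact permutation test over the 6 rats gave p = 0.1, which is the smallest p that 3 against 3 allows. A ratio cannot say which of the pair differed, and this one was examined with the Slc27a5 difference already known.

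**Figure D2:**
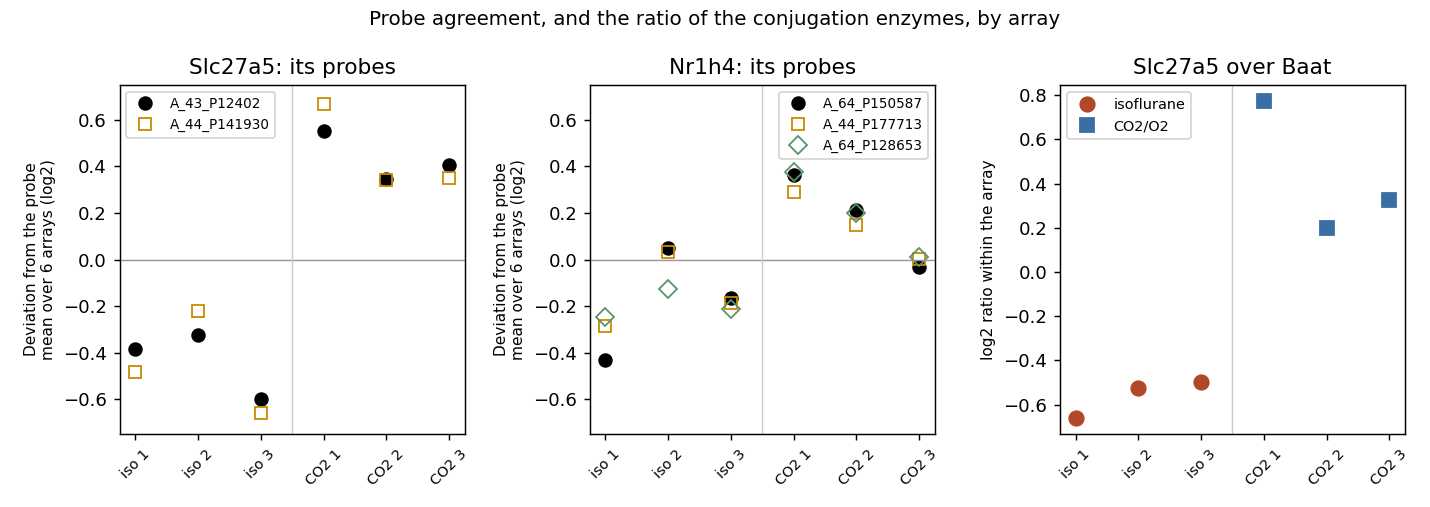
Left and middle, each array's deviation in log2 units from the mean of a probe over 6 arrays, for the 2 probes of Slc27a5 and the 3 of Nr1h4. Right, the log2 ratio of Slc27a5 to Baat signal on each array, at -0.66 to -0.50 after isoflurane (iso) and 0.20 to 0.77 after CO2/O2 (CO2).

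**Figure D3:**
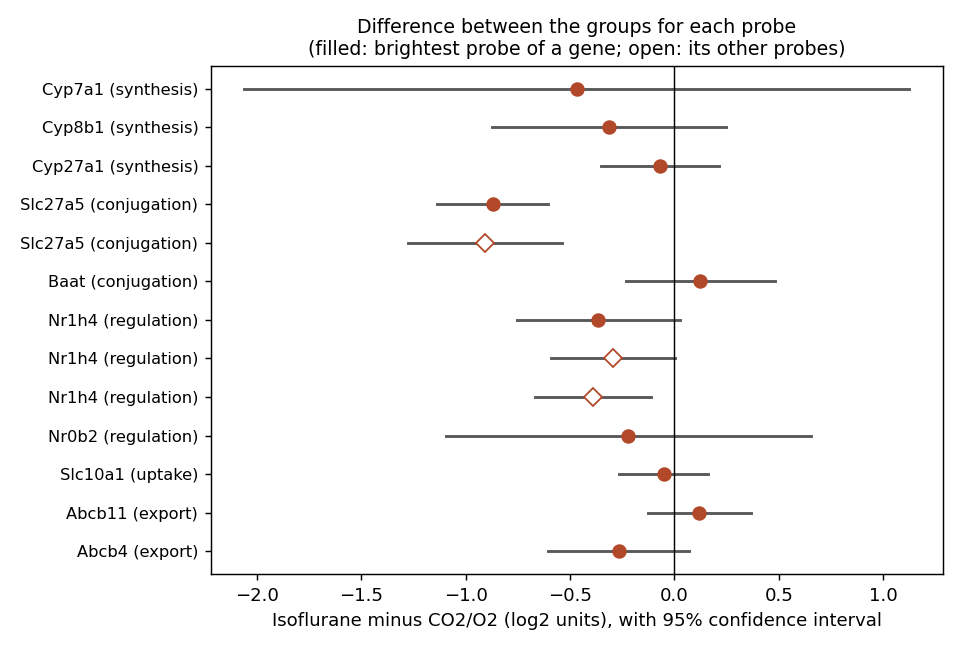
Difference between the groups (isoflurane minus CO2/O2, log2 units) with its 95% confidence interval for all 13 probes, in pathway order. Filled circles are the brightest probe of a gene and open diamonds its other probes. The intervals of both Slc27a5 probes and of 1 Nr1h4 probe leave out 0, and no probe passed after adjustment.

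The bile acid receptor Nr1h4 was measured by 3 probes, all with negative differences. Its brightest probe, A_64_P150587, had signals of 4.52, 4.99 and 4.78 in isoflurane rats, against 5.31, 5.16 and 4.91 in CO2/O2 rats. The groups overlapped through isoflurane replicate 2 and CO2/O2 replicate 3, and the difference was -0.36 ± 0.16 (limma adjusted p = 0.671). Dropping isoflurane replicate 2 gave -0.48, and dropping isoflurane replicate 1 gave -0.24. Probe A_44_P177713 had 1.1002, 1.42 and 1.20 in isoflurane rats and 1.67, 1.53 and 1.39 in CO2/O2 rats, a difference of -0.29 ± 0.12. At A_64_P128653 the signals were 1.03, 1.15 and 1.06 in isoflurane rats and 1.65, 1.47 and 1.29 in CO2/O2 rats. There the groups did not overlap, with a difference of -0.39 ± 0.11 (limma adjusted p = 0.586). The 3 differences lay within 0.10 of each other, so that the probes of this gene agreed in size while only 1 of them separated the rats.

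Nr0b2, the repressor that Nr1h4 induces, had signals of 6.44, 5.24 and 6.61 in isoflurane rats, against 6.11, 6.43 and 6.42 in CO2/O2 rats. Isoflurane replicate 2 stood 0.87 log2 units, or 1.82-fold, below every other rat, and the other isoflurane rats were above all CO2/O2 rats, the nearer of them only just (6.44 against 6.43). The difference was -0.22 ± 0.36 (limma adjusted p = 0.914), and 0.21 without that rat.

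The low values of the synthesis enzymes among the 10 genes, and of Nr0b2, fell on isoflurane replicate 2. Of the 10 genes, 4 had their lowest value in this rat, namely Cyp7a1, Cyp8b1, Cyp27a1 and Nr0b2, against 23.3% of all genes tested. For Cyp7a1, Cyp8b1 and Nr0b2 the gap to the next rat was at least that of Cyp8b1, which 0.943% of all genes reached; that limit was set by 1 of the 3 genes after the values were seen. Slc27a5, Baat, Nr1h4, Abcb11, Abcb4 and Slc10a1 were not at their lowest there. Of 35 other tested pathway genes, 10 had their lowest value on this array. The other synthesis genes did not all go this way. Of the 13 tested, Amacr, Cyp7b1, Acox2, Akr1c14 and Hsd17b4 were lowest there and the rest were not. Cyp39a1 was highest there, at 0.62, and Scp2 and Stard4 were neither lowest nor highest. The array had the smallest share of probes well above background, 53.4%, and the most outlier spots, 60, none of them of these genes. The mean deviation of the 8 periportal hepatocyte markers was -0.32 there, and next lowest on CO2/O2 replicate 2, at -0.17. Sds, 1 of the 8, had a signal of 2.06 on isoflurane replicate 2 and 2.58 to 4.66 on the other arrays. The mean deviation of the 10 hepatocyte markers was 0.06 on isoflurane replicate 2. Other marker lists were low there too, at -0.21 for Kupffer cells and -0.14 for pericentral hepatocytes. Of the small intestine list only Fabp2 and Apoa4 were tested, and their mean was -0.22. Bile duct cell and lymphocyte markers had 0.05 and 0.02. Not all of these lows were particular to this array. Isoflurane replicate 3 had -0.22 for Kupffer cells and -0.16 for pericentral hepatocytes, and isoflurane replicate 1 had -0.19 for Fabp2 and Apoa4. The part of the quality of the isoflurane replicate 2 array and of these cells in its low values was not tested.

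**Figure D4:**
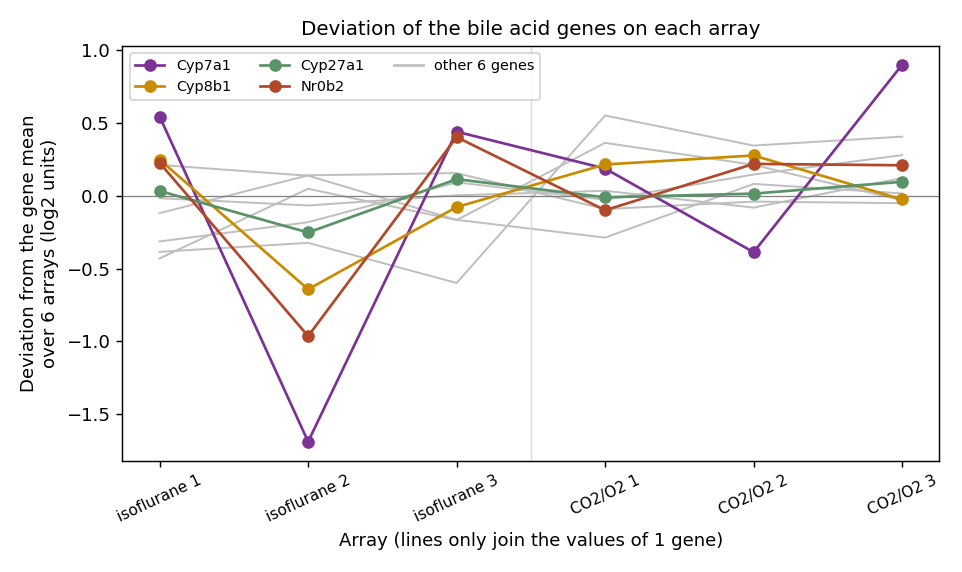
Deviation of each gene from its own mean over the 6 arrays, in log2 units, by array. Coloured lines are Cyp7a1, Cyp8b1, Cyp27a1 and Nr0b2, which reach their lowest values on isoflurane replicate 2, and grey lines are the other 6 genes.

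The uptake and export genes had differences between -0.27 and 0.12. Slc10a1 was the steadiest of the 10, with signals of 6.34, 6.29 and 6.36 in isoflurane rats and 6.39, 6.27 and 6.47 in CO2/O2 rats. Only 12.8% of genes had a narrower range over the arrays. The difference was -0.05 ± 0.09, and its interval of -0.26 to 0.16 corresponds to ratios of 0.833 to 1.12. It was -0.0031 without CO2/O2 replicate 3 and -0.105 without CO2/O2 replicate 2. The bile salt pump Abcb11 had 4.47, 4.73 and 4.74 in isoflurane rats and 4.50, 4.55 and 4.54 in CO2/O2 rats. Here 2 isoflurane rats lay above and 1 below all CO2/O2 rats, and the difference was 0.12 ± 0.10 (limma adjusted p = 0.813; interval -0.13 to 0.37), with 0.07 without isoflurane replicate 3 and 0.21 without isoflurane replicate 1.

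Abcb4 had 1.99, 2.13 and 2.40 in isoflurane rats, against 2.28, 2.45 and 2.59 in CO2/O2 rats. The groups overlapped through 1 rat of each, and the difference was -0.27 ± 0.14 (limma adjusted p = 0.712; interval -0.60 to 0.07), with -0.38 without isoflurane replicate 3 and -0.18 without isoflurane replicate 1.

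Of 41 other genes of bile acid synthesis, regulation and transport, 35 were tested, and 0 passed the adjusted threshold in limma. Positive differences were measured for 18 and negative ones for 17, with a median of 0.0020. At an unadjusted p under 0.05 in limma there were 4 of the 35, against 7.58% of all genes. All 4 were lower after isoflurane, as 4.85% of all genes were at that level. By the brightest probe of each gene, regulators had none at that level among the 10 tested, synthesis had 2 of 13, and transport, sterol export and sulfation had 2 of 12. Dimmer probes can differ from this count: Nr1i3 (CAR), a nuclear receptor of drug and bile acid metabolism, named here after its values were seen, had 0.41 at its brightest probe and 0.74, 0.65 and 0.59 at the others, with unadjusted p of 0.025, 0.036 and 0.064 in limma for these 3. Genes with no named probe were Cyp46a1, Klb and Slc51b, and Star, Slc51a and Ppargc1a were not above background on enough arrays for a test.

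The gene of this list with the widest difference was Sult2a1, a sulfotransferase that sulfates hydroxysteroids and bile acids. It had signals of 6.95, 6.61 and 6.13 in isoflurane rats, against 7.87, 7.65 and 7.02 in CO2/O2 rats, so the groups were apart by 0.07. The difference was -0.95 ± 0.29 (limma adjusted p = 0.592), in a family whose close paralogs may share its probe. Amacr, the racemase that readies the side chain for peroxisomal shortening, had 6.15, 5.75 and 5.91 in isoflurane rats and 6.34, 6.49 and 6.38 in CO2/O2 rats. Its difference was -0.46 ± 0.12 (limma adjusted p = 0.569), with -0.37 and -0.34 at its other probes.

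Among transporters, the uptake carrier Slco1b2 had a difference of -0.28 ± 0.10 with groups apart, and Slco1a4, another uptake carrier, had 0.25 ± 0.12 with groups apart the other way by only 0.0013 (0.34 and 0.23 at its other probes). The basolateral exporter Abcc4 had 0.38 ± 0.16, with 0.62, 0.41 and 0.41 at its other probes. Ch25h, which hydroxylates cholesterol, had -0.47 ± 0.16, and Cyp7b1, an oxysterol hydroxylase of the alternative route, had -0.55 ± 0.27 with -0.44 at its other probe. Hnf4a, a nuclear receptor that activates many bile acid genes, had 0.38 ± 0.18, and 0.19 and 0.03 at its other probes. None of these passed, with limma adjusted p of 0.615 for Ch25h, 0.644 for Slco1b2, 0.661 for Abcc4, 0.691 for Slco1a4 and for Hnf4a and 0.697 for Cyp7b1.

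**Figure D5:**
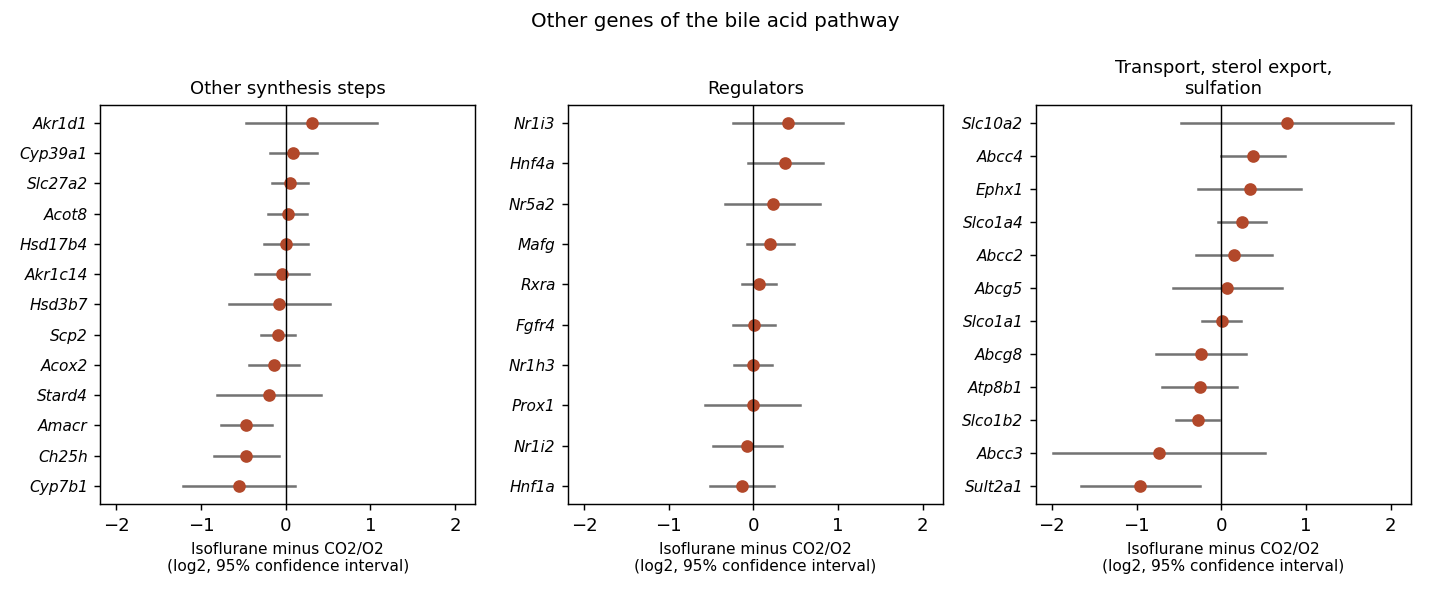
Difference between the groups (isoflurane minus CO2/O2, log2 units) with its 95% confidence interval for the 35 other pathway genes tested, sorted within synthesis, regulation, and transport with sterol export and sulfation. Of these, 18 lie right of 0 and 17 left of it, and Sult2a1 at -0.95 is the farthest left.

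Markers of other cells were set beside these values. Kupffer cell markers, of resident macrophages, had negative differences in 10 of 10 tested, with a summed signal of 160.5 to 188.7 times the 75th percentile after isoflurane and 198.7 to 245.0 after CO2/O2. Pericentral hepatocyte markers had negative differences in 7 of 9, with summed signals of 391.1 to 523.0 after isoflurane and 532.2 to 574.1 after CO2/O2. The Kupffer and pericentral sums did not overlap between the groups, with gaps from 188.7 to 198.7 and from 523.0 to 532.2. These gaps were narrower than the span within either group. They are of linear sums over several markers and were not compared with the log2 values of Slc27a5. Of all single genes tested, 14.2% had groups that did not overlap and 52.9% had a negative difference, and no such share was computed for sums. Periportal markers had negative differences in 7 of 8, with a median of -0.08. Their sums overlapped, at 532.5 to 677.3 after isoflurane and 569.9 to 751.1 after CO2/O2. The general hepatocyte markers had positive differences in 8 of 10, but with a median of only 0.04. No difference between the zones was tested. Lymphocyte markers had negative differences in 6 of 6, with summed signals of 2.61 to 2.81 after isoflurane and 2.71 to 3.37 after CO2/O2, which overlap. Bile duct cell markers had 4 of 7 negative and overlapping sums, 3.02 to 3.898 after isoflurane and 2.98 to 3.42 after CO2/O2. None of these markers passed the adjusted threshold, and the part of these cells in the Slc27a5 values was not tested. Of the small intestine markers, Fabp2 (difference -0.53) and Apoa4 (-0.15) were above background on all 6 arrays, with overlapping sums of 317.0 to 468.3 after isoflurane and 368.0 to 470.7 after CO2/O2, and Vil1, Cdx2 and Fabp6 were not well above background on any.

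The genes whose pattern over the 6 arrays was most like that of Slc27a5 were Mmrn1, RT1-T24-4 and Id2. Of these, Mmrn1 was dim, with signals of -4.30 to -3.28. Likeness was the root mean square difference between the arrays' deviations from each gene's own mean, over 10021 genes above background on all arrays, and it was 0.12, 0.13 and 0.13 log2 units for these genes. A gene that did not vary over the arrays would lie at 0.45 from Slc27a5. The named genes had differences between the groups of -0.73, -0.77 and -0.75, and a like difference by itself brings a gene near. None of the other bile acid genes was closer than Nr1h4, at 0.31. For Cyp7a1, the member with the widest range, the nearest were Styxl1 (0.39), B3galt1 (0.39) and Sds (0.46), and of the bile acid genes Nr0b2 (0.51). There an unvarying gene would lie at 0.85.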

How the data were processed

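Per the labels, liver RNA of each rat was labelled with Cy3 and hybridised to 1 array. Agilent Feature Extraction 10.7 extracted the spots, per the submitters' processing notes. The deposited spot values are linear intensity values whose background was already subtracted, per the file headers, and which were not scaled from array to array. Flags of 0 or 1 mark spots well above background, saturated spots and outliers. The authors' deposited value table holds a ratio on a linear scale, found here to be the processed intensity over 1 number per array, close to its 75th percentile, with no centring. Its column medians were 0.0917, 0.0901 and 0.0905 for isoflurane replicates 1 to 3 and 0.0864, 0.0882 and 0.0868 for CO2/O2 replicates 1 to 3. The sources used here do not say how that number was chosen.

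From the processed intensity, log2 values less each array's 75th percentile over 61657 non-control probes were computed. The 177 spots flagged as outliers were left out. A probe was tested where all arrays of at least 1 group were well above background. Tests used limma 3.58.1 (lmFit and eBayes) in R 4.3.3 and were tested on simulated data, and tables used Python 3.11.15 with pandas 2.3.3. Accessions without version were matched to RefSeq genes of GRCr8 (27460 probes to 1 gene, 34197 to none), for names and promoter sequence only, since array coordinates in the headers are on another build. Each gene took its tested probe of highest mean. The members, lists and tests were chosen with earlier results of these data known. All 10 members are named, and of the other pathway genes the 8 with the smallest unadjusted p. The alternatives were median centring, quantile normalization, normexp (offset 50, on the median signals), the authors' table, other filters, flagged spots kept, eBayes with trend and robust, blocks for replicate number and slide row, the mean of a gene's probes and each array left out. All arrays shared 1 slide and 1 scan time, so no block for those was possible.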

Additional observations from a re-analysis of the deposited data

How the results depend on the processing

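No bile acid gene, and no other pathway gene, passed under any alternative. Slc27a5 had a negative difference in all 16 alternatives, from -0.93 to -0.79 at its brighter probe. Its limma adjusted p ran from 0.143 (eBayes with trend and robust) to 0.960 (without CO2/O2 replicate 1). Several alternatives could not move this difference: the other filters, flagged spots kept, the eBayes settings and the replicate block all left it at -0.87. The authors' table, with nearly the same divisors, also gave -0.87. Its ratio to Baat kept its direction, at -1.11 to -0.82, but median centring and the authors' table cannot change a ratio within an array. The median of the 10 genes, -0.24, was -0.021 under the slide row block, and ran between -0.36 (without isoflurane replicate 3) and 0.0043 (without isoflurane replicate 2) in fits on 5 arrays. The slide row block compares only isoflurane replicate 1 with CO2/O2 rats and assumes that this lone rat varies like the rest; there differences turned to 0.31 for Cyp7a1, 0.0926 for Cyp8b1, 0.12 for Nr0b2 and -0.0582 for Abcb11. In fits on 5 arrays, differences ran from -0.86 to 0.26 for Cyp7a1, -0.14 to 0.0401 for Cyp27a1 and -0.48 to 0.21 for Nr0b2, each positive only without isoflurane replicate 2. Past the threshold were 3 of all probes, against 5 under normexp, 5 under trended robust eBayes, 1 unfiltered, 0 under the replicate block and 1 to 20 in fits on 5 arrays. The 20 came from dropping CO2/O2 replicate 3, 17 from dropping isoflurane replicate 1, 5 from dropping isoflurane replicate 2, and 1 from dropping either CO2/O2 replicate 1 or isoflurane replicate 3. Of genes, 0 passed, against 1 under the slide row block and 0 to 8 in fits on 5 arrays, with 8 after dropping isoflurane replicate 1 and 4 after dropping CO2/O2 replicate 3. The cause of these moves was not tested. Same-numbered rats had deviations correlated at 0.11, 0.02 and 0.06. For each isoflurane rat this was the best match, while isoflurane replicate 3, not 2, was the best match of CO2/O2 replicate 2. Such values do not settle whether the numbers mark pairs, and the main fit did not pair them. Under the replicate block the SE fell from 0.66 to 0.34 for Cyp7a1 and from 0.14 to 0.09 for Abcb4, and rose from 0.15 to 0.16 for Baat. The limma adjusted p of Abcb4 was 0.581 there. With 1 rat of each group per replicate number, that block cannot change a difference between the groups. The median of -0.24 and the Slc27a5 to Baat ratio of -0.995 were therefore bound to stay, and say nothing about stability. The variance settings of eBayes and the mean of probes do not enter that ratio.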

Other observations

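Rats of the same group differed unevenly across the bile acid genes. Among isoflurane rats the SD of Nr0b2 was 0.74 log2 units and wider than that of 96.6% of genes, while among CO2/O2 rats it was 0.18. Abcb11 had an SD of 0.15 in isoflurane rats and 0.03 in CO2/O2 rats, where only 4.86% of genes were steadier. Slc27a5 was near the middle of all genes on this measure in both groups, at 49.5% among isoflurane rats and 44.7% among CO2/O2 rats. Whether the spread differs between the groups was not tested.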
